A study of Mus musculus with 8 samples.

Results

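The immunoglobulin heavy chain locus of the mouse was followed here with 85 array probes, out of 55681 distinct probes on the array, in bone marrow cells with and without an Etv2 transgene. A probe was taken when its deposited coordinate (genome build mm9) lay on chromosome 12 between 114.4 and 117.3 Mb and when its gene name began with Igh or its description contained immunoglobulin, Ig heavy, anti-DNA or predicted gene. That window holds 162 probes, and 77 of them carry none of these words. Of the 85 members, 13 lie at the constant end of the locus, where the isotypes are encoded, and 72 lie over the variable segments. All 85 are 60 bases long and lie on the minus strand, so the constant end has the lowest coordinates and the distal variable segments the highest. RefSeq gives 29 members a symbol, 20 of them variable segments; the others keep the names of the array's design. The locus was proposed for description because of how its probes differed between Vav-Etv2 and control arrays, so those differences are given below as a description and not as a test.

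Total RNA came from bone marrow cells of 6-week-old mice of mixed strain (B6/CBA and others), sorted by flow cytometry with no further treatment. KSL cells are c-Kit-positive, Sca-1-positive cells without lineage markers, the fraction that holds the stem and multipotent progenitor cells. Gr cells are Gr-1+/Mac-1+ cells, which are mostly granulocytes. Both cell types were sorted from controls and from Vav-Etv2 animals. The latter carry an Etv2 transgene that is switched on by Vav-iCre, a recombinase made throughout the blood lineage; Etv2 is a transcription factor of early blood and endothelial development. There are 2 arrays in each of the 4 groups, and the labels do not say whether they come from separate animals or from pools. The spread between the 2 KSL arrays of a group may therefore be technical. The 2 Gr arrays of a group differ in RNA from the X and Y chromosomes, as given below, so they are not repeats of 1 RNA sample.

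An antibody heavy chain is assembled from a variable (V), a diversity and a joining segment that are cut and joined by the RAG recombinase in early B cells. The joined segment is first transcribed with the mu constant region, which gives IgM, and by alternative splicing with delta, which gives IgD. A mature B cell can later exchange mu for a gamma, epsilon or alpha region by class switching, and plasma cells make very large amounts of the switched transcripts. Unrearranged V segments and constant regions also give sterile transcripts in early lymphoid cells, and a probe for a segment does not separate these from a rearranged transcript.

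The sequences of 6 constant-end probes are shown first, because the isotype differences below rest on these single oligonucleotides. Capitals mark the longest run of bases that the probe shares with any other member probe. Over the constant-end probes that run is 7 to 10 bases long, and the most similar member has 25 to 31 of 60 bases in common in the best alignment without gaps, so these probes do not resemble each other. The array's annotation does list some targets together: the Ighg2c probe also lists the transcript of BC019489, described as IgG2a, and the printed Ighg1 probe also lists those of the Ighg2c probe and of the other Ighg1 probe. The readings of these gamma probes are therefore not separate measurements of their isotypes.
Predicted gene 16844 (ENSMUST00000103412), chr12:114496985-114497044: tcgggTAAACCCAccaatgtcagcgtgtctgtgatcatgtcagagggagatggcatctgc
Ighe, the epsilon constant region (ENSMUST00000103414), chr12:114509504-114509563: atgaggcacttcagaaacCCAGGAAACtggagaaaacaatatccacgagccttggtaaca
Ighg2c, serum IgG2c (ENSMUST00000103416), chr12:114525600-114525659: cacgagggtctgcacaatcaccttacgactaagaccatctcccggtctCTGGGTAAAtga
Ighg2b, serum IgG2b (ENSMUST00000103418), chr12:114544738-114544797: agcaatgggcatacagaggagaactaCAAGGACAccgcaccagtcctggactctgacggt
Ighg1, the gamma 1 constant region (ENSMUST00000103421), chr12:114568594-114568653: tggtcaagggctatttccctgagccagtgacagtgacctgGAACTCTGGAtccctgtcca
Ighm, the mu constant region (ENSMUST00000103426), chr12:114659630-114659689: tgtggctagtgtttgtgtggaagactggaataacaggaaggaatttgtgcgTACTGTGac

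The variable probes resemble each other far more. The probe of ENSMUST00000103500, shown because its level went the opposite way from most of the locus, shares a run of 23 bases (capitals) with another member. A pair of V probes is shown because both were higher in Vav-Etv2 KSL cells: they have 58 of 60 bases in common, capitals mark the bases that differ, and one transcript could bind both.
ENSMUST00000103500, chr12:115854199-115854258: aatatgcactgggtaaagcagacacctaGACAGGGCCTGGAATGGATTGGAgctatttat
ENSMUST00000103502, chr12:115895649-115895708: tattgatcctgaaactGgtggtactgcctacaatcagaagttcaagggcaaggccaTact
ENSMUST00000103508, chr12:116002746-116002805: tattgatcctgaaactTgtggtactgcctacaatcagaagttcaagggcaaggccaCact

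All levels below are log2 processed signals minus the 75th percentile of the array's non-control probes, so 0 is the level of that percentile and 1 unit is a doubling; levels of different probes are not set against each other. A probe was well above background when the scanner software flagged it so. The 75th percentile signal of the 8 arrays ran from 136 to 301, between 48.4% and 56.1% of spots were well above background, and no spot was saturated. All arrays lay on 1 slide, KSL arrays in row 1 and Gr arrays in row 2, so cell type and slide row cannot be told apart. The 2 Etv2 probes check the transgene: both were well above background on all 4 Vav-Etv2 arrays and on none of the KSL control arrays or Gr control 1. They were also well above background on the array labelled Gr control 2 (-0.54 and -0.85), which goes against its label, and Gr results are therefore given with and without it. RNA of Xist, the X-inactivation transcript, was well above background on the 4 KSL arrays and on both replicate 1 arrays of the Gr cells. It was not on either replicate 2 array of the Gr cells. Ddx3y, a gene of the Y chromosome, was well above background on those replicate 2 arrays alone (1.39 for control and 1.36 for Vav-Etv2). Differences among Gr arrays are therefore also given within each of these pairs.

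Across the locus, 71 members were well above background on both KSL control arrays, 45 on both KSL Vav-Etv2 arrays, 39 on both Gr control arrays and 33 on both Gr Vav-Etv2 arrays. Of the 13 constant-end probes, 11 were above background on both KSL control arrays, 7 on both KSL Vav-Etv2 arrays, 9 on both Gr control arrays and only 2, Ighd and Ighm, on both Gr Vav-Etv2 arrays. Of the 72 variable probes the corresponding numbers were 60, 38, 30 and 31. In sorted cell populations, fewer cells with a transcript and less of it per cell cannot be told apart.

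For the comparisons, 76 members passed the filter (at least 2 of the 8 arrays with a signal well above background), 11 at the constant end and 65 variable. Of the 9 others, 8 were above background on no array and 1 on a single array; a second Ighe probe (ENSMUST00000103413) and a second Ighg2b probe (ENSMUST00000103417) are among the 8. A further limit is that 9 members passed only through the KSL control arrays and 1 only through the KSL Vav-Etv2 arrays, and these had to differ. The counts below are therefore also given for the 28 members above background on all 8 arrays.

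In KSL cells the switched isotypes were the part of the locus that differed most between genotypes. The probe for Ighe, the constant region of IgE, stood at 1.06 and 1.34 on the KSL control arrays and at -5.56 and -5.54 on the KSL Vav-Etv2 arrays, where it was not well above background. Its level on all 4 Gr arrays was also not well above background (-5.46, -5.44, -5.68 and -5.58). On this probe the KSL control arrays thus stand alone, by at least 49.1-fold over the KSL Vav-Etv2 arrays. Such a bound sets the brighter group's mean against the lowest signal that still counted as well above background on the dimmer arrays. The second Ighe probe (ENSMUST00000103413) did not show this: it was not well above background on any array, KSL controls included (-5.34 and -5.17).

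Ighg2c, which encodes the IgG2c of C57BL/6 mice, stood at 4.50 and 4.37 in KSL controls and at -1.02 and -0.94 in KSL Vav-Etv2 cells, all well above background. The difference was -5.42 ± 0.35 (log2, standard error of the fit, n = 2 and 2). The probe of BC019489, described as the heavy chain of serum IgG2a, the allotype of many other mouse strains, starts at base 114525496. It stood at 5.36 and 5.39 in KSL controls and at 1.40 and 1.57 in KSL Vav-Etv2 cells, a difference of -3.89 ± 0.87. For both probes each KSL Vav-Etv2 array lay far below each control array.

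The other gamma probes among the members that passed were lower as well, and 1 of them split the Vav-Etv2 arrays. A gamma-3 probe outside the rule was not lower on both. It stood at 2.00 and 1.92 in KSL controls, and at 2.51 and -5.68 (not well above background) in KSL Vav-Etv2 replicates 1 and 2. Ighg2b stood at 4.81 and 4.80 in KSL controls and at 1.11 and 1.24 in KSL Vav-Etv2 cells, a difference of -3.63 ± 1.22. The printed Ighg1 probe stood at 1.27 and 1.21 against -2.48 and -1.34, a difference of -3.15 ± 0.90. The other Ighg1 probe (ENSMUST00000103420) was at 2.99 and 3.07 in controls, but at -6.40, not well above background, in KSL Vav-Etv2 replicate 1 and at 0.80 in replicate 2.

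The same division between the Vav-Etv2 arrays was wider at the very end of the locus. Predicted gene 16844 is not given an isotype in the files; it lies on the far side of Ighe, where RefSeq places Igha, the IgA constant region, as the neighbouring gene. Its printed probe stood at 8.48 and 8.42 in KSL controls, at -2.25 in KSL Vav-Etv2 replicate 1 and at 6.30 in replicate 2. Its second probe stood at 7.96 and 7.88 in controls and at -6.61 (not well above background) and 5.65 in Vav-Etv2 cells. The heavy chain complex transcript BC019425, from the same end, stood at 3.67 and 3.65 against -6.48 (not well above background) and 1.93. All 3 probes were lower on both Vav-Etv2 arrays than on either control, and in each of them Vav-Etv2 replicate 2 lay far nearer to the controls than replicate 1.

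The 2 constant regions that a B cell uses before switching differed least. Ighm stood at 6.74 and 6.85 in KSL controls and at 4.69 and 5.85 in KSL Vav-Etv2 cells, a difference of -1.52 ± 0.41. Ighd stood at 0.06 and 0.09 in controls and at -0.85 and 0.68 in Vav-Etv2 cells; the groups overlap, the difference was -0.16 ± 0.82, and it became 0.60 without KSL Vav-Etv2 replicate 1. The 11 constant-end probes that passed were all lower in Vav-Etv2 KSL cells, 9 of them over 4-fold, with Ighd and Ighm as the 2 that were not.

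Over the whole locus, 67 of the 76 members that passed were lower in Vav-Etv2 KSL cells, and the median difference was -1.49, against 0.02 over all 32354 probes tested. The median was -5.42 at the constant end and -1.01 over the variable segments. In 55 members both Vav-Etv2 arrays lay below both controls, 10 at the constant end and 45 variable, where 24.3% of all probes did so. By limma's adjusted p under 0.05, 2 members were lower, Ighe and Ighg2c, out of 3 probes called lower among all tested (0.00927%). None was called higher, as was true of all probes. Ighe passed the filter only through the KSL control arrays, so it had to differ and its call adds no evidence. At an unadjusted p under 0.05 the counts were 27 members and 2347 probes in all. Since the locus was chosen from this comparison, these counts only describe it. The 2 calls became 0 without KSL control 2 or without KSL Vav-Etv2 replicate 1, and 1 without KSL control 1. Of the 28 members above background on all 8 arrays, 25 were lower, with a median of -0.50, against 46.6% lower and a median of 0.03 for the 22547 such probes on the array.

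The marker sums of B-lineage and plasma cells differed between genotypes in KSL cells. Summed over the 10 B-lineage markers (the surrogate light chain and others), the linear level was 40.2 and 41.1 on the control arrays and 115.6 and 150.0 on the Vav-Etv2 arrays. Summed over the 6 plasma cell markers measured, it was 102.3 and 106.2 on the control arrays and 33.6 and 45.6 on the Vav-Etv2 arrays. That sum follows Igj, the joining chain of IgA and IgM, whose log2 level was 6.09 and 6.09 against 1.25 and 4.09; Xbp1, a secretion factor that many cells express, differed by -0.22 and Prdm1, a plasma cell regulator, by 0.56. Summed over the 10 granulocyte markers it was 2006 and 1896 against 545 and 2075, lower on Vav-Etv2 replicate 1 alone. All 6 plasma cell markers were well above background on the KSL control arrays and on Vav-Etv2 replicate 2, and all but Tnfrsf17 on replicate 1. The part of these cells in the heavy chain differences was not tested.

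The variable probes nearest the constant end had the lowest median difference in KSL cells. The 65 variable probes that passed were cut by order into 3 stretches after their values had been seen, so no test is given. In the proximal stretch, from 114826478 to 115501054, the median difference was -2.56, and 13 of 21 probes were over 4-fold lower. In the middle stretch the median was -0.75, with 4 of 21 over 4-fold lower, and in the distal stretch, from 116432036 to 117247905, it was -0.50, with 5 of 23. The proximal probes were also dimmer: 2 of 21 were above background on all 8 arrays, against 10 of 21 and 14 of 23. On the 4 KSL arrays the median level of the proximal probes was -1.85, -1.79, -5.28 and -4.08, and that of the distal probes 0.01, -0.30, -0.71 and -0.66, in the order control 1, control 2, Vav-Etv2 replicate 1 and replicate 2. On the 4 Gr arrays the proximal probes had median levels between -6.83 and -5.78, where most were not well above background, and the distal probes between -2.52 and -0.68.

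Resemblance between probes was counted as well. For 31 variable probes another member had at least 48 of 60 bases in common; their median KSL difference was -0.58, and 26 were lower. For the 34 without so close a probe the median was -1.59, and 30 were lower. The part of shared binding, signal strength and position in this pattern was not tested.

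By V family, named through RefSeq for 20 variable probes, the 4 Ighv1 probes were above background on both KSL Vav-Etv2 arrays, with differences from -1.98 to -0.46. The 3 Ighv2 probes were above background on neither of these arrays, and the 4 Ighv3 probes and both Ighv8-8 probes on 1 of them, so their differences are in part against background and are not set against those of Ighv1. Ighv1, the J558 family, is the largest V family of the mouse and occupies the distal part of the locus. Of the 12 probes whose description names J558 and which passed, 11 were lower, over a range of -2.17 to 0.55 and with a median of -0.62; 10 of them were above background on all 8 arrays. Ighv14-2 and Ighv14-3 differed by 0.10 and -0.69, and of the 4 Ighv7 probes 2 passed, each above background on 1 KSL Vav-Etv2 array; the only Ighv9 probe did not pass.

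Single variable probes went further in either direction. The V segment of ENSMUST00000103458 stood at -0.96 and -0.74 in KSL controls and at -6.38 and -5.73, not well above background, in KSL Vav-Etv2 cells, at least 11.8-fold lower. Among the KSL arrays only the controls could carry it through the filter, so a lower value in Vav-Etv2 cells was favoured. The probe of ENSMUST00000103500 did the opposite: it was not well above background on either KSL control array (-6.17 and -6.54) or on any Gr array, and stood at -2.87 and -3.54 in KSL Vav-Etv2 cells, at least 1.93-fold higher. It is the 1 member that passed the filter only through the KSL Vav-Etv2 arrays, so it had to be higher there. The near-identical pair stood at -1.47 and -1.45 (ENSMUST00000103502) and at -1.98 and -1.72 (ENSMUST00000103508) in controls. In Vav-Etv2 cells it stood at -0.82 and -0.89, and at -0.80 and -0.97, so that in both probes each Vav-Etv2 array lay above each control. Among the 65 variable probes, 9 were higher in Vav-Etv2 KSL cells, and in 6 the groups did not overlap, where 26.8% of all probes were higher without overlap.

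Replicate agreement was uneven. Between the 2 KSL control arrays the SD of the difference was 0.32 over the members that passed, and 0.11 at the constant end, against 0.58 over all probes tested. Between the KSL Vav-Etv2 arrays it was 2.52 over the members, against 0.89 over all probes, and replicate 1 lay below replicate 2 on all 11 constant-end probes. The median KSL difference was -0.97 without Vav-Etv2 replicate 1 and -1.38 without replicate 2.

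In Gr cells Ighg2c and BC019489 had the largest differences between genotypes among the members, followed by predicted gene 16844 with a far wider spread. Ighg2c stood at 1.19 in Gr control 1 and at 1.67 on the array labelled Gr control 2, and at -4.18 and -4.86, not well above background, on the Gr Vav-Etv2 arrays, at least 52.9-fold lower. BC019489 stood at 3.73 and 1.48 against -4.03 and -6.09, again not well above background, at least 119-fold lower. Both probes were lower in each Vav-Etv2 array than in each control array. The same holds within each Xist pair, and with Gr control 1 as the only control.

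Ighg2b and the printed Ighg1 probe kept the same order with a larger spread. Ighg2b stood at 3.24 in Gr control 1 and at -0.99 on the array labelled Gr control 2, against -3.64 and -4.91 on the Vav-Etv2 arrays, the last not well above background. The printed Ighg1 probe stood at 0.41 and -2.44 against -5.83 and -4.97, both not well above background. For both probes the controls lay well apart.

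The remaining constant-end probes gave no common direction in Gr cells. Predicted gene 16844 (printed probe) stood at 6.55 in Gr control 1, 3.71 on the array labelled Gr control 2, -5.69 (not well above background) in Vav-Etv2 replicate 1 and 4.40 in replicate 2. The Vav-Etv2 array was thus the lower one in the replicate 1 pair and the higher one in the replicate 2 pair; the fitted difference was -5.77. The other Ighg1 probe was well above background on Gr control 1 alone, at 2.36. Ighm stood at 3.40 and 3.32 in controls and at 3.62 and 3.81 in Vav-Etv2 cells, a difference of 0.35 ± 0.41, and Ighd at -2.74 and -2.72 against -0.86 and -3.32. Leaving out Vav-Etv2 replicate 1 turned the Ighd difference from 0.64 to -0.59.

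Over the locus in Gr cells, 51 of 76 members were lower in Vav-Etv2 cells, with a median of -0.34, against -0.01 for all probes tested. The median was -4.38 at the constant end and -0.31 over the variable segments. In 8 members both Vav-Etv2 arrays lay below both control arrays, 5 of them at the constant end, where 6.22% of all probes did so; 2 members were higher without overlap, where 5.93% of all probes were. By limma's adjusted p under 0.05, 1 member was lower, Ighg2c, the only probe called lower among all tested (0.00309%). At an unadjusted p under 0.05 the counts were 6 members and 423 probes. The call did not stand with any 1 of the 8 arrays left out. Nor was Ighg2c called when arrays were matched by replicate number, across all groups or within each cell type. Of the 28 members above background on all 8 arrays, 26 were lower, all of them variable, with Ighd and Ighm as the 2 that were higher; their median was -0.39, against -0.01 for the 22547 such probes.

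The Gr differences depended on the array pair. Within the pair with Xist RNA (replicate 1 arrays) 56 of 76 members were lower in Vav-Etv2 cells, with a median of -0.96. Within the pair without it (replicate 2 arrays) 20 were lower, with a median of 0.27, against -0.02 and 0.02 over all probes. The constant-end medians of the pairs were -6.88 and -0.14. The median over the locus was -1.22 when the array labelled Gr control 2 was left out, and 0.65 when Gr control 1 was. Between the Gr control arrays, replicate 1 was higher in 68 of 76 members, and between the Gr Vav-Etv2 arrays in 63. The plasma cell marker sums of the Gr arrays were 80.3, 97.9, 59.7 and 99.6, and those of the B-lineage markers 12.7, 8.1, 36.1 and 8.9, in the order Gr control 1, the array labelled Gr control 2, Vav-Etv2 replicate 1 and replicate 2; Sdc1 and Tnfrsf17 were not well above background on any Gr array. Most of each Gr plasma cell sum is Xbp1, at log2 levels of 6.20, 6.60, 5.89 and 6.62 in the same order. The part of these cells in the result was not tested.

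The last comparison sets the KSL arrays labelled control against the Gr arrays labelled control. Heavy chain probes had higher values in KSL than in Gr controls almost throughout: 73 of 76 members were higher, and 31 of them, 5 at the constant end and 26 variable, passed limma's adjusted p under 0.05. That is 40.8% of the members, where 15.7% of all probes were called higher. No member was called lower, where 18.5% of all probes were. In 59 members both KSL controls lay above both Gr controls, where 34.2% of all probes did so. The median difference was 2.48, against -0.15 over all probes tested. This comparison shares its KSL control arrays with the comparison of genotypes in KSL cells, from which the locus was chosen, so its counts and p-values describe the locus and are not independent of that choice. Of the 31 calls, 16 (1 constant and 15 variable) belong to the 20 members that passed the filter only with the help of the KSL control arrays. Of the 56 members that would have passed on the other 6 arrays, 53 were higher and 15 were called, which is 26.8%, where 14.7% of all such probes were; their median was 1.89, against -0.19. Of the 28 members above background on all 8 arrays, 26 were higher, with a median of 1.27, against 42.8% higher and a median of -0.22 for all such probes. With Gr control 1 as the only Gr control, 64 of the 76 were higher, with a median of 1.08, and 21 were called, 20 of them among the 31.

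At the constant end, Ighe was higher in control KSL cells by at least 56.3-fold; its probe passed the filter only through the KSL control arrays, so no p is given. Ighm, at 6.74 and 6.85 in KSL and 3.40 and 3.32 in Gr controls, was higher by 3.43 ± 0.41 (limma, adjusted p = 0.00260), and Ighg2c by 3.00 ± 0.35 (adjusted p = 0.00236). With Gr control 1 as the only Gr control, when all arrays compared had Xist RNA and the lone array is assumed to vary like the other groups, the differences of Ighm and Ighg2c were 3.40 (adjusted p = 0.00784) and 3.24 (adjusted p = 0.00499). Ighd was higher by 2.80 ± 0.82 (adjusted p = 0.0390) and BC019489 by 2.77 ± 0.87 (adjusted p = 0.0466), but leaving the array labelled Gr control 2 out raised their adjusted p-values to 0.0885 and 0.152. The other 6 did not pass: Ighg2b differed by 3.68 ± 1.22 (adjusted p = 0.0557), the Ighg1 probes by 5.37 ± 3.21 and 2.26 ± 0.90, the probes of predicted gene 16844 by 3.33 ± 3.66 and 3.56 ± 4.08, and BC019425 by 2.96 ± 2.88.

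Of the 26 variable probes called higher in control KSL cells, 19 were not well above background on either Gr control array, and 6 were well above it on all 4 control arrays. The J558.B18 segment (ENSMUST00000103544) stood at 0.51 and 0.66 in KSL controls and was not well above background on any Gr array, at least 38.6-fold higher (adjusted p = 0.00134). It stayed above background in KSL Vav-Etv2 cells, at -0.68 and -0.11. Ighv7-1 was at least 13.5-fold and Ighv3-8 at least 10.8-fold higher; both passed the filter only with the help of the KSL control arrays.

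Among variable probes seen in both cell types, Ighv1-9 stood at 1.39 and 1.52 in KSL controls and at -0.20 and -1.22 in Gr controls, higher by 2.16 ± 0.48 (adjusted p = 0.0161). The J558.13 segment (ENSMUST00000103525) was higher by 2.74 ± 0.51 (adjusted p = 0.00936). Ighv14-3 was well above background on all 8 arrays, at 2.44 and 2.36 in KSL controls and at 2.07 and 0.00 in Gr controls, a difference of 1.36 ± 0.63 that did not pass (adjusted p = 0.133). The distal end of the window closes with LOC100505009, which ran from 1.09 to 1.59 on the KSL arrays and from -1.05 to 1.29 on the Gr arrays. The nearest probes outside the window were A_55_P2014328, at -1.84 to -1.50 on the KSL arrays and -1.08 to -0.25 on the Gr arrays, and that of Vipr2, well above background on the KSL arrays alone (-4.03 to -3.03).

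The number of calls between the cell types moved with single arrays. Without Gr control 1, 49 were called, 21 of them among the 31. Without KSL control 1 or KSL control 2, when the lone KSL array is assumed to vary like the other groups, 9 and 8 were called.

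Genes that act with the heavy chain were counted by list, with 1 probe per gene; the lists were drawn up with results of these data known. No gene of any list passed limma's adjusted p under 0.05 between genotypes, in either cell type. The B cell receptor partners and the surrogate light chain, which pairs with mu on pre-B cells, were higher in Vav-Etv2 KSL cells in 13 of 15 genes, with a median of 1.56, and in Gr cells in 11 of 15, with a median of 0.56. Vpreb1, a surrogate light chain gene, stood at 1.26 and 1.53 in KSL controls and at 4.82 and 4.87 in KSL Vav-Etv2 cells. Igll1, which encodes the other surrogate light chain protein, stood at -1.31 and -1.25 against 2.33 and 2.62. In both genes the groups did not overlap, where 26.8% of all probes were higher without overlap in KSL cells. The direction was the opposite of that at the constant end.

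Of the recombination machinery, 12 of 14 genes had higher values in Vav-Etv2 KSL cells, with a median of 0.33, and of the transcription factors that act on the locus 14 of 19, with a median of 0.38. Xrcc5, a DNA repair gene, and the factors Tcf3, Ikzf1 and Myb were among those with lower values, by differences of -0.31, -0.27, -0.21 and -0.40. Rag1, which encodes the catalytic subunit of the recombinase, stood at -0.83 and -0.61 in controls and at 1.98 and 2.52 in Vav-Etv2 cells. Ebf1, a factor that commits cells to the B lineage, stood at -0.69 and -1.05 against 1.48 and 2.18. Between control KSL and control Gr cells, 4 of 14 rearrangement genes were called higher and 5 lower, where 15.7% and 18.5% of all probes were. Dntt, which adds bases at the joints, was higher by 8.58 (limma, adjusted p = 0.000988).

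The antibody secretion and plasma cell genes were divided, with 7 of 15 higher in Vav-Etv2 KSL cells and a median of -0.17. Igj stood at 6.09 and 6.09 in KSL controls, at 1.25 and 4.09 in KSL Vav-Etv2 cells, at 2.67 and -0.39 in Gr controls and at -6.05 (not well above background) and -0.08 in Gr Vav-Etv2 cells. Tnfrsf17, the BCMA receptor of plasma cells, stood at -1.62 and -1.60 in KSL controls and at -5.44 (not well above background) and -4.23 in KSL Vav-Etv2 cells. Derl3 and Sdc1 differed by -1.17 and -0.64. Cd38 went the other way by 2.59, at -1.86 and -1.98 in KSL controls against 1.78 and -0.43 in KSL Vav-Etv2 cells. Between the control cell types 3 of the 15 genes were called higher in KSL cells, Sdc1, Tnfrsf17 and Derl3, and 3 lower. These counts lie near the shares over all probes, 15.7% called higher and 18.5% lower. Derl3 was higher by 4.77 (adjusted p = 0.00161), with Gr control 1 not well above background. Sdc1 stood at 0.52 and 0.56 in KSL controls and was not well above background on any Gr array (adjusted p = 0.00202); Tnfrsf17 passed the filter only with the help of the KSL control arrays.

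Class-switching genes differed little between genotypes, with 8 of 11 higher in KSL cells and a median of 0.16. Between the control cell types 4 of the 11 were called higher in KSL cells and 1 lower, where 15.7% and 18.5% of all probes were. The B cell surface markers were higher in Vav-Etv2 KSL cells in 15 of 17 genes, with a median of 0.36, and in Gr cells in 14 of 17, with a median of 0.54.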

How the data were processed

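Per the labels, total RNA was labelled with Cy3 and hybridised to 1-colour Agilent arrays. The authors deposited scanner output from Agilent Feature Extraction (10.7.3.1 per the file headers, 10.7 per the submitters' processing notes), which holds intensity values, background flags (other) and probe coordinates in mm9. They also deposited a table of log2 values, of which 99.8% lay within 0.01 of the log2 values recomputed here when centred within a cell type. How that table was made is not given in the sources used here.

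Of the scanner's 62976 spots, 59305 are not controls. The processed signal was taken to log2, non-uniform outlier spots were removed, spots of a probe were averaged, and the array's 75th percentile was subtracted; 20 probes had no spot left. The 32354 probes well above background on at least 2 of 8 arrays were fitted in R 4.3.3 with limma 3.58.1 (lmFit, eBayes), 1 coefficient per group, with 4 residual degrees of freedom, and p-values were adjusted by Benjamini-Hochberg over all probes. Tables were made with Python 3.11.15 and pandas 2.3.3. With 2 arrays in a group, their number limits the precision. The fit was tested on simulated data: of 200 probes changed by 4 log2 units, 147 were recovered with 6 false calls, and of 200 changed by 2 units none was.

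Members and gene lists were chosen with earlier results of these data known. The rule for probes named in the text took those called in a comparison, the 5 with the largest difference in each, constant-region probes, the 5 with the highest mean and the ends of the window; others were chosen after their values were seen. RefSeq symbols came from the GRCm38 table, whose coordinates were not used to choose or place probes. Replicate numbers came from the labels. Alternatives covered background correction, scaling, the filter, the probe per gene, a signal floor, the arrays in the fit, a replicate block, an intensity trend, the deposited table and leaving out each array.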

Additional observations from a re-analysis of the deposited data

Results flagged for a closer look

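The printed Ighe probe was the only probe tested whose genotype difference itself differed between KSL and Gr cells at limma's adjusted p under 0.05. It makes up the whole 0.00309% of probes so called. The difference was -6.75 in KSL cells and -0.18 in Gr cells, and the gap between them was -6.57 ± 0.39 (log2). The probe was not well above background on any Gr array of either genotype, so the Gr difference compares signals near background. It passed the filter only through the KSL control arrays, so a gap in this direction was built in. The locus was chosen from these comparisons, so the value describes the probe and is no independent test. With each array left out in turn, the gap ran from -6.71 to -6.43, and no refit kept it past the threshold.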

How the results depend on the processing

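No result of the locus changed from one called direction to the other under any alternative that was run. The 2 members called lower in Vav-Etv2 KSL cells became 4 with median scaling, 6 with quantile normalization (5 lower and ENSMUST00000103500 higher) and 0 with probes above background on all 8 arrays, a filter that neither Ighe nor Ighg2c passes; with each array left out they numbered 0 to 3 (3 without either Gr control). The 1 call in Gr cells became 0 with normexp background correction, the filter on all 8 arrays, only the Gr arrays, and each array left out (0 to 0). The 31 calls between control cell types became 18 with normexp and 7 with the filter on all 8 arrays, and 8 to 49 with each array left out. The 1 call for the difference between cell types became 0 with normexp, no filter, the filter on all 8 arrays, the signal floor, the intensity trend and each array left out. The median KSL difference of -1.49 became -0.55 with normexp and -0.50 with the filter on all 8 arrays. The median between control cell types, 2.48, became 1.01 with normexp and ran from 1.08 (without the array labelled Gr control 2) to 3.04 with each array left out. The median of the difference between cell types ran from -1.65 (without Gr control 1) to 0.32. The cause of these shifts was not tested, apart from the filter, which leaves 28 members.

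Replicate numbers did not pair the KSL arrays: deviations of same-numbered arrays correlated with r = 0.06 between the KSL groups and 0.65 between the Gr groups, over 32354 probes. With the replicate block, 1 member was called in KSL cells (Ighe), 0 in Gr cells, 33 between cell types and 0 for the difference between cell types. With a replicate block within each cell type the counts were 1, 1 (BC019489 in place of Ighg2c), 41 and 0. Among named probes without a call, the sign of the Gr difference changed in 50 of 726 refits, over 26 probes, and that of the KSL difference in 4 of 707. Probes near background limit the depth: fitted differences from them depend on the background correction, as for Ighe in KSL cells (-6.75, and -2.99 with normexp).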

Other observations

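The rule's words also left out heavy chain probes. One (ENSMUST00000103422) is described in the files as the Ig gamma-3 chain. It stood at 2.00 and 1.92 on the KSL control arrays, at 2.51 in KSL Vav-Etv2 replicate 1, at 2.37 in Gr control 1 and was not well above background on the other 4 arrays, so it followed neither genotype nor cell type. Probes over the variable segments were left out as well. That of ENSMUST00000103468, described as an IgM chain, stood at 2.87 and 3.01 on the KSL control arrays, at -6.41 (not well above background) and 0.87 on the KSL Vav-Etv2 arrays, and was not well above background on any Gr array. That of LOC639930, described as an IgM heavy chain, was above background on all 8 arrays, at 0.40 and 0.47 on the KSL control arrays and at -2.50 and -1.61 on the KSL Vav-Etv2 arrays. Others did not follow: that of ENSMUST00000103495 was above background on all 8 arrays and differed by -0.08 between genotypes in KSL cells. The ENSMUST00000103493 probe stood at -3.10 and -3.35 on the KSL Vav-Etv2 arrays. It was above background on no other array, so it had to be higher there. The 40 probes of the window outside the rule that passed the filter, which mix such probes with other genes and unnamed transcripts, had median differences of -0.07 between genotypes in KSL cells and -0.05 in Gr cells.

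Receptors that bind the heavy chain constant region ran against the locus between the control cell types. Of 10 measured, 5 were called lower in control KSL than in control Gr cells and none higher. Of all probes, 18.5% were called lower and 15.7% higher. Fcgr3, an activating IgG receptor of myeloid cells, was lower by 4.96 (limma, adjusted p = 0.00130), at -0.04 and 0.13 in KSL controls against 5.57 and 4.45 in Gr controls. Fcgr4 differed by -4.82 (adjusted p = 0.0131) and Fcer1g, the signalling chain they share, by -3.70 (adjusted p = 0.00336). Between genotypes none of the 10 was called in either cell type, and 8 had lower values in Vav-Etv2 KSL cells.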
